A study of Mus musculus with 34 samples.

Results

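The mature miRNAs of the miR-17-92 cluster, of its paralogs miR-106a-363, miR-106b-25 and miR-92b, and of the miR-15/16 family (miR-15a/16-1, miR-15b/16-2, miR-195a/miR-497a and miR-322) were followed in mouse CAD cells as they lost serum. Members were chosen by name, with earlier results of these data known. They were the mature mouse miRNAs called miR-17, miR-18a, miR-18b, miR-19a, miR-19b, miR-20a, miR-20b, miR-92a, miR-92b, miR-93, miR-25, miR-106a, miR-106b, miR-363, miR-15a, miR-15b, miR-16, miR-195, miR-195a, miR-497, miR-497a or miR-322, with any copy number and arm. Of the 1525 entries in the small RNA tables, 42 carried such a name, 20 of them guide arms and 22 passenger arms. The filter on low counts kept 36 of the 42. The other 6 (miR-106a-5p, miR-18b-5p, miR-18b-3p, miR-20b-3p, miR-363-3p and miR-497a-3p) had too few reads to be tested.

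A miRNA is cut out of a hairpin as a short duplex. One strand, the guide, is kept by an Argonaute protein and finds its targets mainly through its seed, bases 2 to 8 from the 5' end, while the other strand, the passenger, is usually discarded and turns over quickly. The hairpins of miR-17-92 lie on one primary transcript that Myc and E2F proteins switch on and that is known for driving proliferation, whereas the miR-15/16 family is known for holding back cyclins and other cell cycle genes.

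CAD is an established mouse catecholaminergic cell line that leaves the cell cycle and takes on a neuronal shape in serum-free medium; the labels call the source neuroblastoma cells. Small RNA was sequenced from wild-type (WT) cells in 10% fetal bovine serum and from WT cells 4 days after serum was removed, with 3 libraries in each group. PolyA RNA-seq of WT cells gave the genes that carry the hairpins: a first experiment with 2 libraries in serum and 2 at 1 day without serum, and a second with 3 in serum and 3 at 4 days. The first experiment also held 4 libraries of mir-138 DKO cells (the label for a double knockout), 2 of them in serum and 2 at 1 day. They entered its count filter, its scaling and its estimate of the spread, but not the groups compared. The 4-day libraries of the second experiment carry mir-138 DKO in their genotype field, against their titles and the design text, and were treated as WT. The labels do not say whether replicates were separate cultures, so the spread behind each p-value may be technical.

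The guides share 5 seeds, and the sequences below show which members share a target-pairing seed and how alike their remaining bases are. All sequences are from RefSeq (build GRCm38.p6), where 41 of the 42 members had an entry. The seed is in capitals.
miR-17-5p: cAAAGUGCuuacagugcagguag
miR-20a-5p: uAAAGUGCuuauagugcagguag
miR-106b-5p: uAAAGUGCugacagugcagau
miR-93-5p: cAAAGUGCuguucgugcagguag
miR-18a-5p: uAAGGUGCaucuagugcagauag
miR-19a-3p: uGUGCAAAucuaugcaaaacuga
miR-19b-3p: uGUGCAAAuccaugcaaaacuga
miR-92a-3p: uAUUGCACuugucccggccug
miR-25-3p: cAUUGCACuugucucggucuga
miR-92b-3p: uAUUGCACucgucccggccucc
miR-15a-5p: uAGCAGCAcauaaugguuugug
miR-15b-5p: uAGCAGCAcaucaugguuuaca
miR-16-5p: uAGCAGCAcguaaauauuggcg
miR-195a-5p: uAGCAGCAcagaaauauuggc
miR-497a-5p: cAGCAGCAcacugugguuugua
miR-322-5p: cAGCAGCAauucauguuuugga
Some guides are so alike that short reads can be credited to the wrong one. miR-19a-3p and miR-19b-3p differed at 1 of 23 bases, as did miR-17-5p and miR-106a-5p. miR-17-5p and miR-20a-5p differed at 2 of 23 bases, and miR-16-5p and miR-195a-5p at 2 of the 21 they share. miR-92a-3p and miR-92b-3p also differed at 2 of the 21 they share. At 2 of 23 bases, miR-20b-5p differed from miR-17-5p, miR-20a-5p and miR-106a-5p, and miR-18b-5p from miR-18a-5p. Levels of single members of these pairs are therefore uncertain, most of all for the rarer partner. The passengers of 2 copies of a guide differ in sequence, which lets the copies be told apart by hairpin, but passengers were not compared base by base. miR-19b-1-5p and miR-19b-2-5p differ mainly near their 3' ends, so shortened reads of these could be credited to the wrong copy.

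Passengers identify the hairpin where guides do not. miR-16-5p, miR-19b-3p and miR-92a-3p are each made from 2 hairpins in different clusters, and their reads cannot be assigned to either. The passengers below, written with the same positions 2 to 8 in capitals, are those whose level or share of the duplex turned out to move most, with partners made from the other copy of the guide or from the neighbouring hairpin.
miR-92a-1-5p: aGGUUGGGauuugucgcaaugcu
miR-92a-2-5p: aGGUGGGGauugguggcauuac
miR-19b-1-5p: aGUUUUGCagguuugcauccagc
miR-19b-2-5p: aGUUUUGCagauuugcaguucagc
miR-16-1-3p: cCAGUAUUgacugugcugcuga
miR-16-2-3p: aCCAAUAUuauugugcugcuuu
miR-15a-3p: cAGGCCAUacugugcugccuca
miR-15b-3p: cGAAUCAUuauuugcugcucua
miR-195a-3p: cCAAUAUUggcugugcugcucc
In the hairpins of miR-92a-1 and miR-16-1, here with both mature arms in capitals, the guide lies on opposite sides: on the 3' arm of miR-92a-1 and on the 5' arm of miR-16-1.
Mir92-1: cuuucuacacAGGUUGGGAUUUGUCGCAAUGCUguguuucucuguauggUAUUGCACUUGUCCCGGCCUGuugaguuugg
Mir16-1: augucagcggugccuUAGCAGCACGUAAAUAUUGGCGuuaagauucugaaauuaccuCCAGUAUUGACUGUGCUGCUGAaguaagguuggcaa
Mir92-1 lies at chr14:115044427-115044506 on the plus strand and Mir16-1 at chr14:61631880-61631972 on the minus strand. The clusters are compact. The 6 hairpins of miR-17-92 span 836 bases (chr14:115043671-115044506, plus strand), in the order miR-17, 18a, 19a, 20a, 19b-1 and 92a-1. The 3 of miR-106b-25 span 498 bases inside Mcm7 (chr5:138165321-138165818, minus strand), and miR-15b/16-2 spans 225 bases inside Smc4 (chr3:69009772-69009996, plus strand). The 6 of miR-106a-363 span 875 bases of the X chromosome (chrX:52741693-52742567, minus strand).

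Reads assigned to miRNAs ranged from 1423978 to 2763553 per small RNA library, and the members took 13.9 to 15.2% of them in serum and 9.99 to 10.3% at 4 days. Levels are given as CPM, read counts relative to the total of assigned reads after TMM scaling. Serum libraries were less alike than 4-day libraries, and serum replicate 2 stood furthest apart. It correlated across miRNAs at 0.953 and 0.895 with serum replicates 1 and 3, which correlated at 0.975 with each other. The 4-day libraries correlated at 0.992 to 0.995. Of the neuronal and catecholaminergic markers in the second RNA-seq experiment, Tubb3 (509 to 782 CPM), Chga (103 to 291) and Chgb (1123 to 8637) were present throughout. Th, the rate-limiting enzyme of catecholamine synthesis, was near absent, at 0.904 to 1.71 CPM in serum and 0.101 to 1.20 CPM at 4 days, and Dbh, which makes noradrenaline, went from 51.1 to 59.5 CPM down to 4.45 to 7.00 CPM. All 14 of the 14 miRNAs listed as markers of other cell types had reads. Their summed level was 15000 to 21100 CPM in serum and 36800 to 38100 CPM at 4 days, of which mmu-miR-143-3p made up 14100 to 20400 and 35200 to 36600 CPM. Groups did not overlap either for mmu-miR-145a-5p of mesenchyme (230 to 503 CPM in serum, 724 to 826 at 4 days), mmu-miR-375-3p of endocrine cells (44.7 to 99.9 and 177 to 256), mmu-miR-338-3p of oligodendrocytes (81.3 to 177 and 266 to 275), mmu-miR-219a-2-3p of the same cells (2.35 to 4.09 and 10.0 to 15.8), mmu-miR-1a-3p and mmu-miR-133a-3p of muscle (60.6 to 78.0 and 119 to 145, and 1.18 to 7.94 and 15.8 to 25.9) and, downward, mmu-miR-142a-3p of blood (27.6 to 33.7 and 6.33 to 10.5). Markers of muscle, blood and liver were each at 0 to 145 CPM. Counts of 0 occurred for mmu-miR-206-3p and mmu-miR-223-3p in serum replicate 3, for mmu-miR-142a-5p in 4-day replicate 1 and for mmu-miR-219a-5p in 4-day replicate 2, and the part of such cells in the results was not tested. In bulk libraries fewer cells making a miRNA and less of it per cell cannot be told apart.

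At 4 days 13 of 19 tested passengers and 8 of 17 tested guides were lower, and the members that were higher were all guides, 3 of the miR-15/16 family. By edgeR's quasi-likelihood test, Benjamini-Hochberg adjusted across the 715 miRNAs tested, 21 of the 36 tested members were lower and 3 higher at an adjusted p below 0.05, and 12 did not pass. Among all 715, 16.2% were lower and 19.6% higher. The passengers had a median log2 fold change of -0.95, with 0 higher, and the guides one of -0.41. The median of all miRNAs tested was -0.112. In 22 members all 3 libraries at 4 days lay below all 3 in serum (24.1% of all miRNAs tested), and in 4 they lay above (27.8%).

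These directions are relative to the scaling of the libraries. With library totals alone the median of all miRNAs was -0.384, and 26 members were lower and 1 higher. Among all 715 miRNAs 193 were then lower and 88 higher. The small RNA data also held 2 entries named for other species, a fly and a frog miRNA, whose source the labels do not state. Scaled to them, the median of all miRNAs was 0.616, 5 members were lower and 7 higher, and 15 members changed sign. Among all 715 miRNAs 19 were then lower and 243 higher. The 5 members that were lower under that scaling too were miR-92a-1-5p (-2.50), miR-19b-1-5p (-1.94), miR-15b-3p (-1.75), miR-16-1-3p (-1.38) and miR-16-2-3p (-1.36). The ratio of both arms within a library does not depend on scaling and is given further on.

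**Figure D1:**
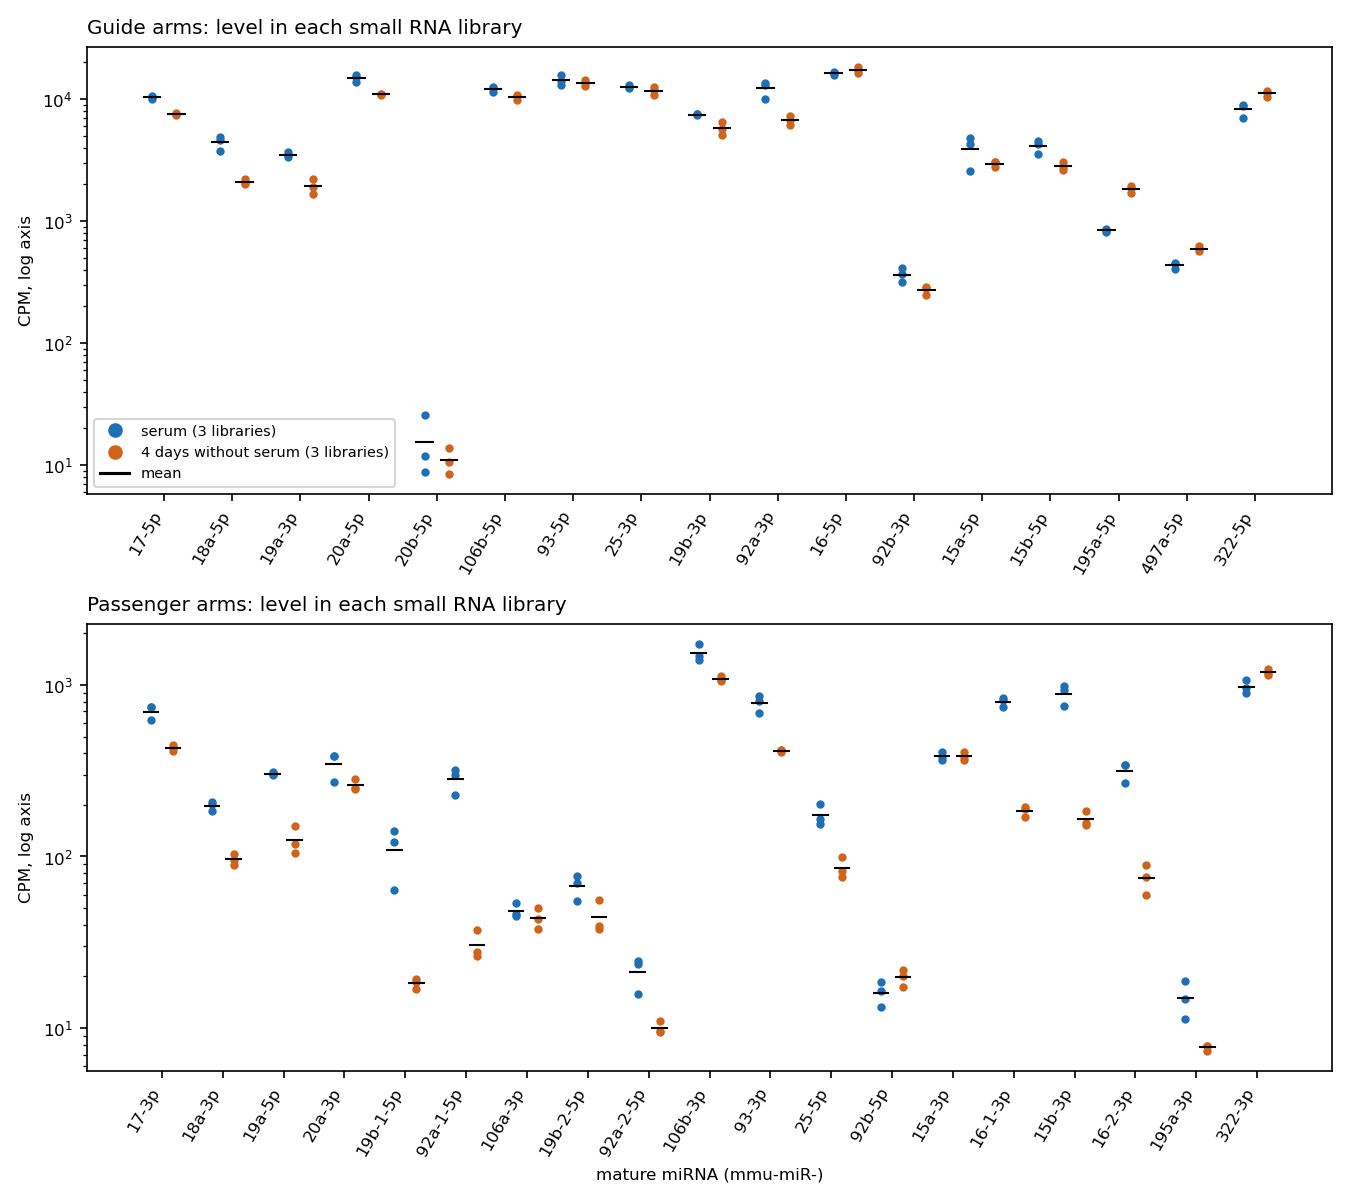
Level of each tested member in each of the 6 small RNA libraries, guides above and passengers below, in CPM after TMM scaling on a log axis; points are libraries and bars are group means (3 libraries each). The passengers miR-92a-1-5p, 19b-1-5p, 16-1-3p, 15b-3p and 16-2-3p show the widest gaps between serum (blue) and 4 days (orange), and they were lower under each scaling tried, while 15 other members changed sign when scaled to the 2 entries of other species.

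In the miR-17-92 cluster itself all 4 guides that come from it alone were lower at 4 days under TMM scaling. Scaled to the entries of other species, miR-17-5p and miR-20a-5p changed sign. miR-18a-5p (-0.37) and miR-19a-3p (-0.1) lost their calls under that scaling. Of the 4 guides miR-18a-5p fell most. It stood at 4639, 3756 and 4906 CPM in serum and at 2217, 2063 and 2011 CPM at 4 days. The groups lay far apart, with a log2 fold change of -1.08 ± 0.12 (SE, n = 3 each, adjusted p = 0.00109). miR-19a-3p, which has a seed of its own with miR-19b-3p, stood at 3372, 3669 and 3459 CPM in serum and 2230, 1889 and 1674 CPM at 4 days. miR-17-5p, the family's founder, stood at 10020, 10490 and 10570 CPM in serum and 7572, 7392 and 7649 CPM at 4 days. miR-20a-5p, which shares its seed, stood at 13680, 15640 and 15140 CPM and then at 10880, 10980 and 11050 CPM. None of the 3 had overlapping groups, and their log2 fold changes were -0.86 ± 0.13, -0.46 ± 0.07 and -0.43 ± 0.08 (adjusted p = 0.0028, 0.00378 and 0.00603). The falls of these guides, cut from one transcript, ranged from 1.35-fold for miR-20a-5p to 2.11-fold for miR-18a-5p, and the differences among guides were not tested.

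The 2 guides that miR-17-92 shares with the X-linked cluster were also lower under TMM scaling. Scaled to the entries of other species, miR-19b-3p changed sign and miR-92a-3p lost its call (-0.16). miR-92a-3p, which has another seed and is known for repressing Itga5, stood at 13590, 10050 and 12980 CPM in serum and 7270, 6731 and 6136 CPM at 4 days (log2 fold change -0.86 ± 0.14, adjusted p = 0.00391). miR-19b-3p stood at 7346, 7497 and 7555 CPM and then at 6462, 5670 and 5079 CPM (-0.38 ± 0.11, adjusted p = 0.0313). Groups did not overlap for either, but the call for miR-19b-3p was lost without serum replicate 1 or 3 and without replicate 2 or 3 at 4 days.

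Of the 6 passengers of miR-17-92, 5 were lower, by different amounts along the cluster. miR-92a-1-5p, from the last hairpin, stood at 317.7, 229.5 and 300.2 CPM in serum and at 37.5, 27.6 and 26.4 CPM at 4 days. It was 9.26-fold lower, the largest fall among the tested members, with a log2 fold change of -3.22 ± 0.21 (adjusted p = 1.19e-04). miR-19b-1-5p, from the hairpin before it, stood at 141.0, 64.2 and 121.9 CPM in serum and at 16.9, 19.3 and 18.5 CPM at 4 days. It was 5.98-fold lower (-2.58 ± 0.33, adjusted p = 0.00168), with serum replicate 2 well below the other serum libraries. The first 4 hairpins moved less. miR-19a-5p went from 302.4, 309.5 and 296.7 CPM to 150.9, 118.5 and 104.4 CPM (-1.28 ± 0.16, adjusted p = 0.00129). miR-18a-3p went from 208.9, 183.2 and 201.3 CPM to 89.7, 95.2 and 103.2 CPM (-1.04 ± 0.12, adjusted p = 0.00111). miR-17-3p went from 739.2, 620.4 and 738.2 CPM to 444.3, 413.3 and 429.2 CPM (-0.71 ± 0.11, adjusted p = 0.00401), a fall that vanished when scaled to the entries of other species (0.007). Under that scaling miR-19a-5p (-0.52) and miR-18a-3p (-0.34) lost their calls. For these 3 passengers the groups did not overlap. miR-20a-3p, from the fourth hairpin, had 387.2, 271.8 and 383.8 CPM in serum and 248.0, 283.0 and 249.7 CPM at 4 days. Its groups overlapped through serum replicate 2, and it did not pass the test (-0.42 ± 0.16, adjusted p = 0.09).

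The ratio of passenger to guide reads, read within each library, set the ends of the cluster apart. Passenger reads of miR-92a-1 per 100 reads of its guide numbered 2.34, 2.28 and 2.31 in serum and 0.515, 0.411 and 0.43 at 4 days, a log2 change of -2.36 ± 0.14 (SE, edgeR's quasi-likelihood test of arm by group, adjusted p = 4.95e-05). For miR-19b-1 they numbered 1.92, 0.856 and 1.61 in serum and 0.261, 0.341 and 0.364 at 4 days (-2.13 ± 0.32, adjusted p = 0.00348). These guides also collect reads from a second hairpin, so the ratio sets one passenger against the sum of both copies. For miR-19a the number went from 8.97, 8.44 and 8.58 to 6.77, 6.27 and 6.24 (-0.43 ± 0.13, adjusted p = 0.045). That call was lost when any 1 library but serum replicate 2 was left out. The arms of miR-18a moved together, with 4.50, 4.88 and 4.10 in serum and 4.05, 4.62 and 5.13 at 4 days. miR-20a had 2.83, 1.74 and 2.54 and then 2.28, 2.58 and 2.26. Both groups overlapped, and the log2 changes were 0.03 ± 0.16 and 0.03 ± 0.20 (adjusted p = 0.912 and 0.944), with either sign when single libraries were left out. miR-17 stood at 7.38, 5.91 and 6.98 and then at 5.87, 5.59 and 5.61 (-0.24 ± 0.13, adjusted p = 0.221). Without serum replicate 2 the change of miR-17 passed the test, at -0.34.

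**Figure D2:**
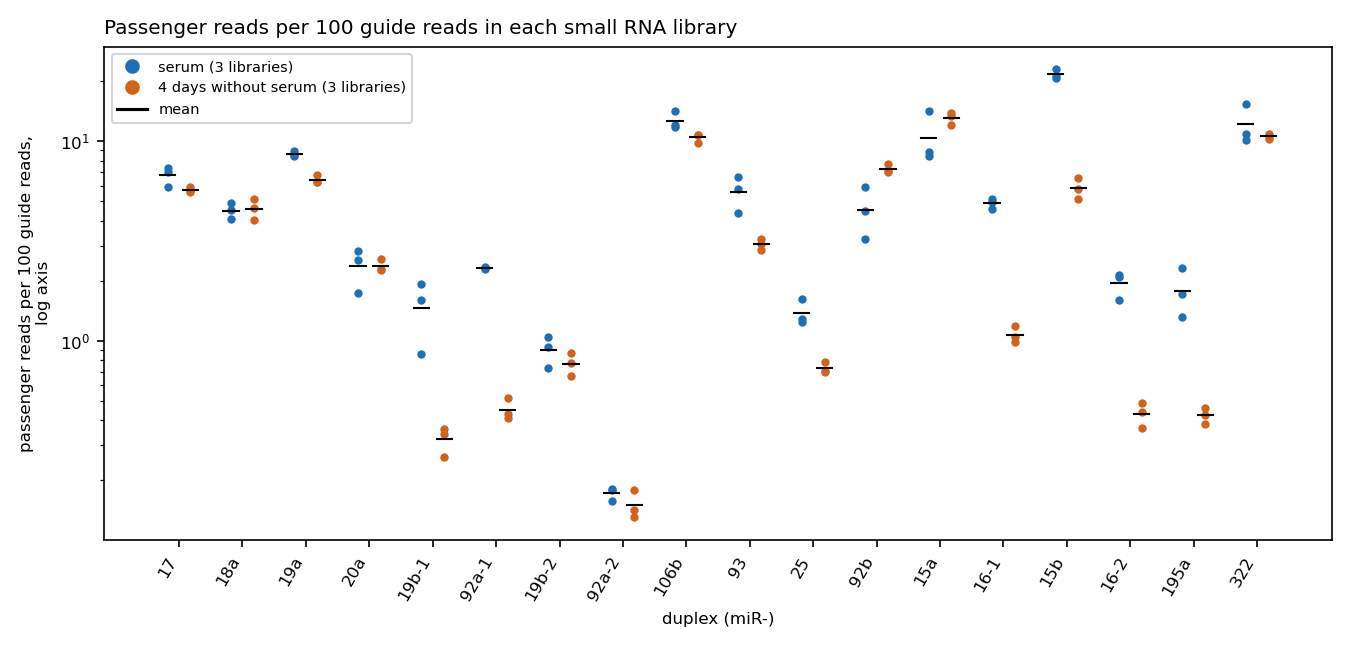
Passenger reads per 100 guide reads of 18 member duplexes in each small RNA library, on a log axis; points are libraries and bars are group means (3 libraries each). The ratio fell from about 2.31 to 0.452 for miR-92a-1 and from 21.6 to 5.82 for miR-15b, while miR-18a and miR-20a show overlapping groups; within-library ratios do not depend on scaling.

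Passengers made from the other copy of the same guides had smaller changes. In the X-linked miR-106a-363 cluster, 9 names were listed and 4 tested, and 1 passed: miR-92a-2-5p, at 24.5, 15.9 and 23.6 CPM in serum and 9.50, 9.65 and 11.03 CPM at 4 days (-1.08 ± 0.30, adjusted p = 0.0313). The groups lay apart, but the call was lost when any 1 library but serum replicate 2 was left out. It kept pace with its guide, at 0.18, 0.158 and 0.181 passenger reads per 100 guide reads in serum and 0.131, 0.143 and 0.18 at 4 days (-0.20 ± 0.19, adjusted p = 0.486). miR-19b-2-5p stood at 76.6, 70.1 and 55.3 CPM in serum and 55.9, 37.7 and 39.4 CPM at 4 days (-0.60 ± 0.26, adjusted p = 0.112), with overlapping groups. Per 100 guide reads it numbered 1.04, 0.935 and 0.732 and then 0.866, 0.666 and 0.775, which overlapped as well. The other 2 tested members of the cluster were low: miR-106a-3p had 44.7 to 53.6 CPM in serum and 37.7 to 50.4 CPM at 4 days, and miR-20b-5p had 8.83 to 25.8 and 8.44 to 13.8 CPM. For miR-106a the 3p arm, usually the passenger, was the more abundant one, and miR-106a-5p had 1.97 to 15.2 CPM.

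Passengers of the 2 copies of a guide were also set against each other within each library. Reads of miR-92a-1-5p per read of miR-92a-2-5p numbered 13.0, 14.5 and 12.8 in serum and 3.94, 2.86 and 2.39 at 4 days. Reads of miR-19b-1-5p per read of miR-19b-2-5p numbered 1.84, 0.915 and 2.20 in serum and 0.302, 0.512 and 0.47 at 4 days. In both pairs all serum libraries lay above all 4-day libraries, with log2 changes of -2.16 ± 0.22 and -1.89 ± 0.45 (SE). Within the cluster, reads of miR-92a-1-5p per read of miR-17-3p went from 0.43, 0.37 and 0.407 to 0.0843, 0.0669 and 0.0615 (-2.51 ± 0.15). The exact two-sided permutation test gave p = 0.1 for each of the 3 ratios, the smallest that 3 against 3 libraries allow (adjusted p = 0.125 over 5 such ratios, chosen after the values were seen).

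In the miR-106b-25 cluster none of the 3 guides passed the test, while all 3 passengers were lower. miR-93-5p stood at 12920, 15860 and 14010 CPM in serum and 12860, 13650 and 14230 CPM at 4 days. miR-25-3p stood at 12350, 12500 and 12930 and then at 12570, 11810 and 10820 CPM. Both had overlapping groups and did not pass the test (-0.07 ± 0.10 and -0.10 ± 0.08, adjusted p = 0.582 and 0.358), although under library totals alone both were lower past the threshold (-0.34 and -0.38). miR-106b-5p had 11520, 12210 and 12550 CPM and then 9793, 10530 and 10790 CPM. Its groups did not overlap, but the change missed the threshold (-0.22 ± 0.08, adjusted p = 0.0683) and passed it without serum replicate 2, under library totals alone and with DESeq2. All 3 guides changed sign when scaled to the entries of other species. The passenger miR-93-3p went from 856.7, 689.1 and 807.1 CPM to 415.8, 417.7 and 404.8 CPM (-0.93 ± 0.11, adjusted p = 0.00143). miR-25-5p went from 154.8, 203.0 and 165.4 CPM to 98.7, 82.1 and 76.4 CPM (-1.03 ± 0.17, adjusted p = 0.00441). miR-106b-3p, the most abundant passenger in serum, went from 1400, 1729 and 1475 CPM to 1060, 1126 and 1063 CPM (-0.50 ± 0.11, adjusted p = 0.0146). No groups overlapped, but miR-106b-3p changed sign when scaled to the entries of other species and lost its call without any 1 of the 4-day libraries. Under that scaling miR-93-3p (-0.22) and miR-25-5p (-0.24) lost their calls.

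Arm ratios in this cluster fell for miR-93 and miR-25. Passenger reads per 100 guide reads of miR-93 numbered 6.63, 4.35 and 5.76 in serum and 3.23, 3.06 and 2.84 at 4 days (-0.86 ± 0.18, adjusted p = 0.0113), a call lost without replicate 2 or 3 at 4 days. Those of miR-25 numbered 1.25, 1.62 and 1.28 and then 0.785, 0.695 and 0.706 (-0.92 ± 0.15, adjusted p = 0.0049). Neither had overlapping groups. For miR-106b they numbered 12.1, 14.2 and 11.8 and then 10.8, 10.7 and 9.85, and the change did not pass (-0.28 ± 0.13, adjusted p = 0.161).

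miR-92b, a solitary locus at chr3:89227116-89227198 on the minus strand, showed the opposite tilt without passing the test. Its guide miR-92b-3p stood at 409.7, 314.8 and 367.9 CPM in serum and 247.5, 286.1 and 282.7 CPM at 4 days (-0.42 ± 0.14, adjusted p = 0.0497). That call sat at the threshold and was lost when any 1 library but serum replicate 2 was left out, and its sign changed when scaled to the entries of other species. Its passenger had 13.3 to 18.5 CPM in serum and 17.4 to 21.7 CPM at 4 days. Passenger reads per 100 guide reads numbered 3.24, 5.88 and 4.48 and then 7.04, 7.06 and 7.66 (0.72 ± 0.26, adjusted p = 0.0778). All 4-day libraries lay above all serum libraries, and without serum replicate 2 the ratio passed, at 0.94. The guide's level and this ratio are uncertain, since miR-92b-3p differs from the far more abundant miR-92a-3p at 2 of 21 shared bases.

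In the miR-15/16 clusters both passengers of miR-16 fell, while their shared guide did not pass the test. The guide miR-16-5p, the most abundant of all members at 4 days, stood at 15860, 16770 and 16300 CPM in serum and 18200, 17160 and 16250 CPM at 4 days. The groups overlapped and the change did not pass (0.08 ± 0.07, adjusted p = 0.431), with the opposite sign under library totals alone (-0.20) and a rise past the threshold when scaled to the entries of other species (0.82). miR-16-1-3p, the passenger from chromosome 14, stood at 811.2, 834.6 and 747.1 CPM in serum and 188.9, 168.9 and 193.4 CPM at 4 days. It was 4.34-fold lower (-2.12 ± 0.11, adjusted p = 5.65e-05), with no overlap. miR-16-2-3p, from chromosome 3, stood at 340.2, 267.9 and 342.0 CPM and then at 88.7, 75.9 and 59.9 CPM. It was 4.23-fold lower (-2.09 ± 0.19, adjusted p = 4.12e-04), again with no overlap.

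Reads of miR-16-1-3p per read of miR-16-2-3p numbered 2.38, 3.12 and 2.18 in serum and 2.13, 2.23 and 3.23 at 4 days. The groups overlapped (log2 change -0.03 ± 0.25, exact permutation p = 0.9). Per 100 reads of miR-16-5p, miR-16-1-3p numbered 5.11, 4.98 and 4.58 in serum and 1.04, 0.984 and 1.19 at 4 days (-2.19 ± 0.14, adjusted p = 4.95e-05). miR-16-2-3p numbered 2.14, 1.60 and 2.10 and then 0.487, 0.442 and 0.368 (-2.17 ± 0.18, adjusted p = 1.68e-04). Both ratios dropped more than 4-fold in these libraries, by 4.58 and 4.49 times.

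The partners of the miR-16 copies differed from each other. miR-15b lies beside miR-16-2, and its passenger miR-15b-3p fell with the neighbour's: 984.4, 748.7 and 938.4 CPM in serum against 157.2, 183.4 and 152.4 CPM at 4 days. It was 5.42-fold lower (-2.44 ± 0.15, adjusted p = 1.07e-04). Its guide miR-15b-5p went from 4293, 3532 and 4525 CPM to 3066, 2793 and 2642 CPM (-0.54 ± 0.12, adjusted p = 0.0156). Neither arm's groups overlapped, but the guide's call was lost when any 1 library but serum replicate 2 was left out, and its sign changed when scaled to the entries of other species. The passenger share of miR-15b was the highest of the duplexes with the usual guide arm in serum, at 22.9, 21.2 and 20.7 passenger reads per 100 guide reads, and fell to 5.13, 6.57 and 5.77 (-1.90 ± 0.15, adjusted p = 1.35e-04).

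Neither arm of miR-15a, the neighbour of miR-16-1, passed the test. Its passenger miR-15a-3p stood at 404.6, 366.4 and 378.5 CPM in serum and 406.8, 365.1 and 381.2 CPM at 4 days. The groups overlapped almost fully (0.00 ± 0.10, adjusted p = 0.976), and its sign varied with the scaling (-0.27 under library totals alone). Reads of miR-16-1-3p per read of miR-15a-3p numbered 2.01, 2.28 and 1.97 in serum and 0.464, 0.463 and 0.507 at 4 days (log2 change -2.12 ± 0.08, exact permutation p = 0.1, the smallest that 3 against 3 allow). The guide miR-15a-5p had 4822, 2595 and 4305 CPM in serum and 3028, 3027 and 2754 CPM at 4 days. Serum replicate 2 lay below every 4-day library and the others far above, and the change did not pass (-0.41 ± 0.22, adjusted p = 0.19). Without that library the guide was lower (-0.66, past the test), and the passenger share of miR-15a was higher (0.61, past the test, against 0.37 ± 0.22 with all libraries).

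The other guides of the miR-15/16 seed rose. miR-195a-5p, from the miR-195a/miR-497a cluster (chr11:70234717-70235135, plus strand), stood at 818.9, 851.2 and 859.5 CPM in serum and 1920, 1851 and 1703 CPM at 4 days. The groups lay far apart (1.11 ± 0.10, adjusted p = 3.44e-04). miR-497a-5p stood at 407.1, 452.4 and 440.3 and then at 572.5, 624.4 and 587.9 CPM (0.46 ± 0.10, adjusted p = 0.0128). miR-322-5p, from the X chromosome (chrX:53054255-53054349, minus strand), stood at 8785, 6974 and 8876 and then at 11300, 11650 and 10460 CPM (0.44 ± 0.12, adjusted p = 0.0267). No groups overlapped, but the last 2 lost their calls under library totals alone (0.19 and 0.16) and without some single libraries. The passenger miR-195a-3p had few reads, 11.2 to 18.9 CPM in serum and 7.39 to 7.90 CPM at 4 days, and was lower (-0.95 ± 0.30, adjusted p = 0.0476), a call lost when any 1 library but serum replicate 2 was left out. Per 100 reads of its guide it numbered 2.31, 1.32 and 1.71 in serum and 0.385, 0.427 and 0.462 at 4 days (-2.06 ± 0.26, adjusted p = 0.00133). miR-322-3p numbered 10.2, 15.4 and 10.9 per 100 reads of its guide in serum and 10.3, 10.6 and 10.9 at 4 days, with overlapping groups (-0.17 ± 0.18, adjusted p = 0.51).

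**Figure D3:**
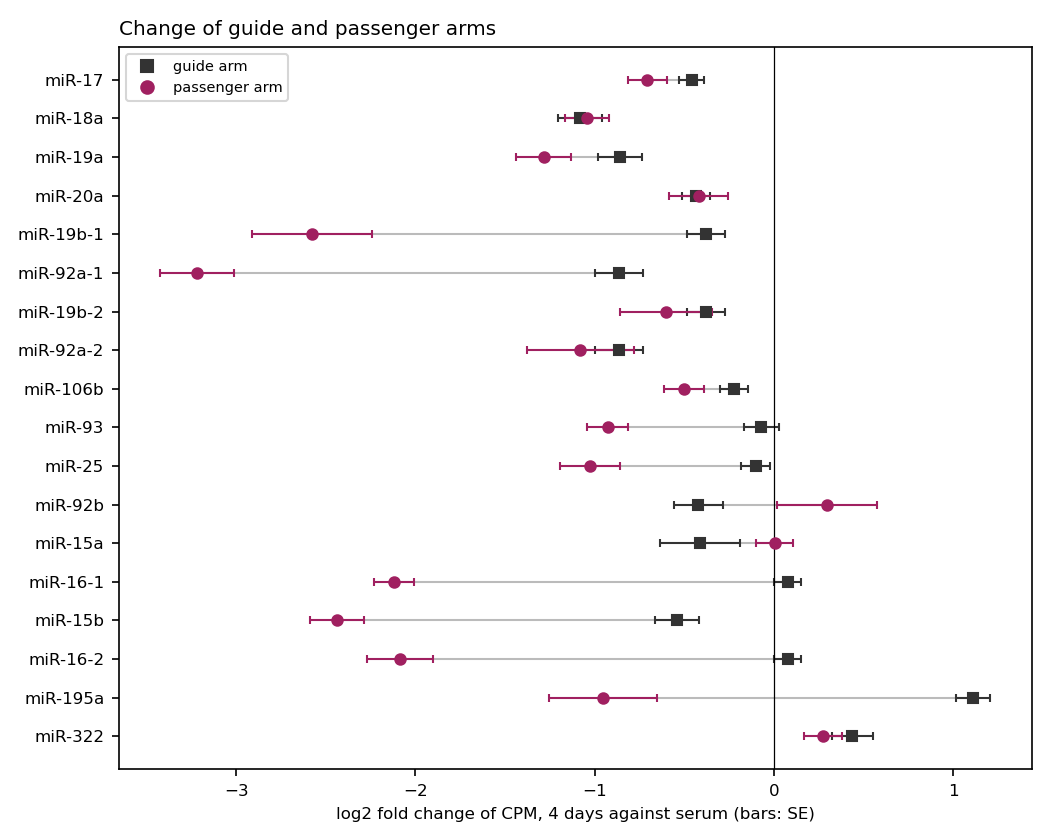
Log2 fold change of CPM (4 days against serum, TMM scaling) of the guide (square) and passenger (circle) of each duplex; bars are standard errors, and a guide made from 2 hairpins is drawn at both. The passengers of miR-92a-1 (-3.22), miR-19b-1, miR-15b, miR-16-1 and miR-16-2 lie far to the left of their guides; scaled to the 2 entries of other species, these 5 stay negative while 15 other members change sign, and the distance between arms does not depend on scaling.

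Where the arm ratio of a member passed the test, it had fallen. Of 22 member duplexes with both arms listed, 19 had enough reads (a mean of at least 10 counts per arm), and the passenger share was lower in 9 and higher in 0, while 10 did not pass. Among all 264 duplexes tested with the less abundant arm taken as the passenger, 22.3% were lower and 4.92% higher. The median log2 change was -0.43 over the members and -0.31 over all duplexes. It was -0.35 over the 18 member duplexes whose usual guide was the more abundant arm, which leaves out miR-106a. The 9 ranged from miR-92a-1 (-2.36) to miR-19a (-0.43), and 6 of them (miR-92a-1, miR-16-1, miR-16-2, miR-19b-1, miR-195a and miR-15b) lay at -1.90 or below. All 6 passed with each library left out in turn. Without serum replicate 2, 100 of the 264 duplexes were lower and 33 higher, and of the members 10 and 2, the latter being miR-15a and miR-92b.

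**Figure D4:**
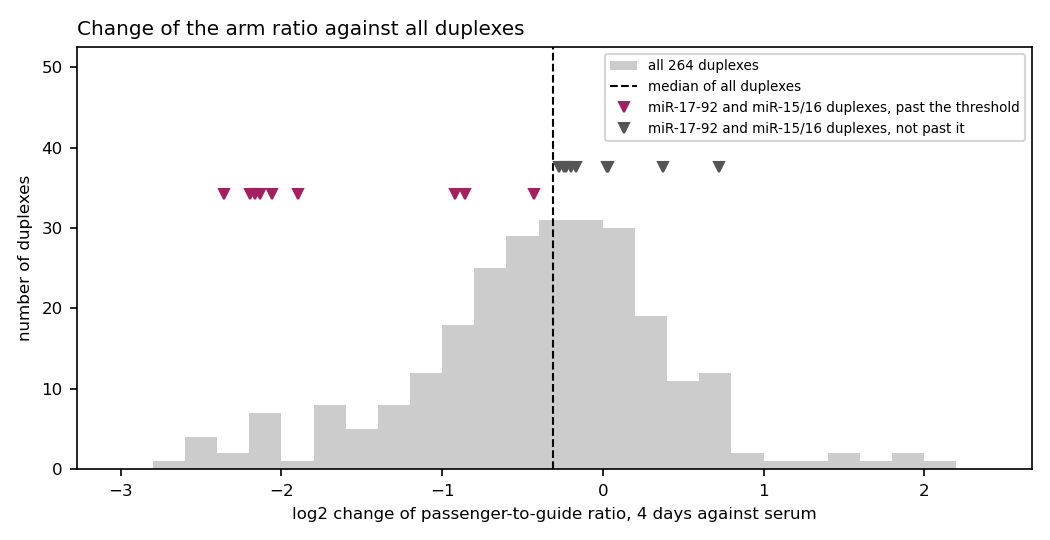
Histogram of the log2 change of the passenger-to-guide ratio (4 days against serum) over all 264 duplexes tested, with the 18 member duplexes whose usual guide was the more abundant arm as triangles (miR-106a, at -0.84, is not drawn) and the median of all duplexes (-0.309) as a dashed line; the vertical axis counts duplexes and the height of the triangles has no meaning. Of the members, 6 lie at -1.90 or below, and the 9 drawn that did not pass lie above the median.

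Guides that share a seed can pair with the same sites, so the levels of the member guides were also summed by seed. Other miRNAs that may carry these seeds were not searched for and are not in the sums. The miR-17 seed AAAGUGC (6 guides) summed to 48160, 54240 and 52280 CPM in serum and 41120, 42570 and 43730 CPM at 4 days, or 0.82 times the serum mean. The miR-18 seed AAGGUGC stood at 0.47 times, from 4438 ± 598 to 2102 ± 108 CPM (SD, n = 3 each). The miR-19 seed GUGCAAA stood at 0.70 times, from 10970 ± 228 to 7668 ± 974 CPM, and the miR-92 seed AUUGCAC to 0.74 times, from 25170 ± 1990 to 18720 ± 1430 CPM. In these 4 families no libraries overlapped between the groups. The miR-15/16 seed AGCAGCA (6 guides) summed to 34990, 31170 and 35310 CPM in serum and 38090, 37110 and 34400 CPM at 4 days, and its groups overlapped. These sums depend on the scaling as the single guides do, of which the tested guides of the miR-17 seed, miR-19b-3p, miR-25-3p, miR-92b-3p, miR-15a-5p and miR-15b-5p changed sign when scaled to the entries of other species, and they were not tested.

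The genes that carry the hairpins were read from polyA RNA, which measures the spliced host and not the mature miRNA. In the second experiment 13283 genes were tested, of which 34.7% were lower and 36.2% higher at 4 days. All 3 host genes measured were lower. Mir17hg, the host transcript of miR-17-92, stood at 8.64, 7.19 and 6.37 CPM in serum and 1.28, 2.31 and 2.79 CPM at 4 days (log2 fold change -1.79 ± 0.32, edgeR adjusted p = 2.3e-04). Mcm7, a subunit of the replicative helicase that hosts miR-106b-25, stood at 380.2, 387.8 and 407.9 and then at 28.6, 41.2 and 41.8 CPM. Smc4, a condensin subunit that hosts miR-15b/16-2, stood at 273.8, 263.6 and 251.5 and then at 25.8, 39.7 and 34.3 CPM. Mcm7 was 10.53-fold lower (-3.40 ± 0.13, adjusted p = 4.81e-11) and Smc4 7.91-fold lower (-2.98 ± 0.13, adjusted p = 1.71e-10), with no overlap in any host. Beside the fall of Mcm7, none of the 3 guides of its cluster passed the test. The passengers of that cluster were 1.42 to 2.03-fold lower under TMM scaling. Scaled to the entries of other species, none of these passengers was called lower, and miR-106b-3p changed sign. Beside the fall of Smc4, miR-15b-3p and miR-16-2-3p were 5.42 and 4.23-fold lower. Of the guides of that cluster, miR-15b-5p was 1.45-fold lower under TMM scaling but changed sign when scaled to the entries of other species. miR-16-5p, made from 2 hairpins, did not pass the test. The passenger miR-16-1-3p, from a hairpin outside Smc4, was 4.34-fold lower. Dleu2, which carries miR-15a/16-1, was not analysed here.

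At 1 day, in the first experiment, 2 of the 3 hosts were lower, beside 20.3% lower and 20.4% higher among the 13630 genes tested. Mcm7 went from 337.0 and 350.5 CPM to 185.9 and 188.4 CPM (-0.88 ± 0.06, adjusted p = 8.82e-08). Smc4 went from 306.2 and 318.0 CPM to 159.8 and 175.6 CPM (-0.90 ± 0.09, adjusted p = 1.96e-06). Mir17hg went from 4.65 and 4.37 CPM to 2.75 and 2.74 CPM. Its libraries did not overlap, but the change did not pass (-0.72 ± 0.36, adjusted p = 0.129), except when the 4 WT libraries were fitted alone. Small RNA at 1 day was not analysed here.

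**Figure D5:**
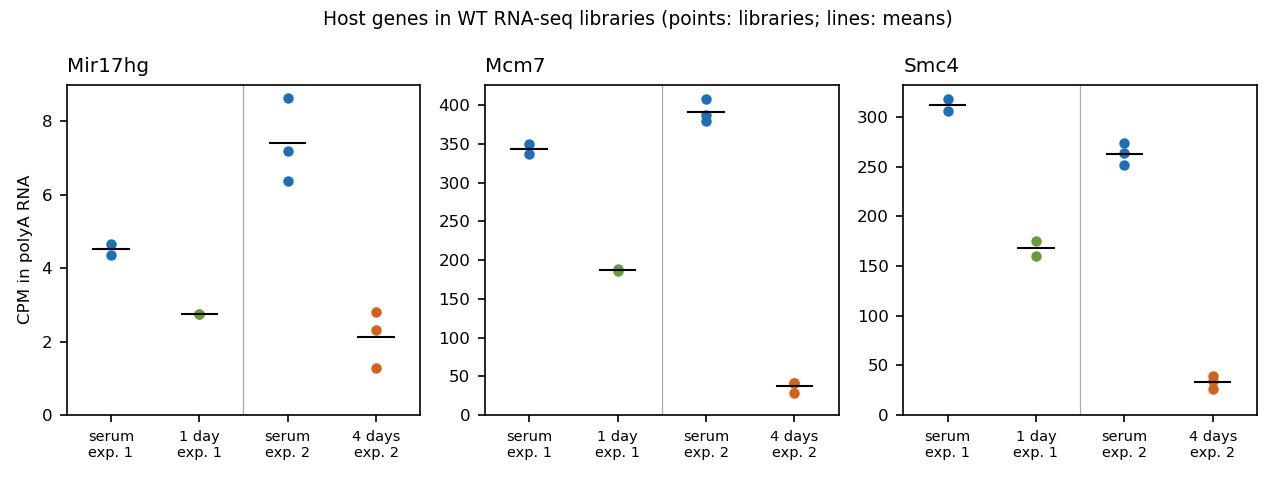
Level of 3 host genes in each WT polyA RNA-seq library, in CPM scaled within each experiment (exp. 1: serum and 1 day, 2 libraries each; exp. 2: serum and 4 days, 3 libraries each); points are libraries, lines are means, and each axis starts at 0. All 4-day libraries lie below all serum libraries of their experiment, with Mcm7 falling from 392 to 37.2 CPM on average.

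Of the transcription factors known to act on the miR-17-92 promoter, 4 of 5 were lower at 4 days and 1 was higher, beside 34.7 and 36.2% of all genes. E2f2 stood at 61.1, 59.2 and 58.8 CPM in serum and at 0, 0.850 and 0.640 CPM at 4 days (-6.89 ± 0.35, adjusted p = 9.12e-10). E2f1 stood at 109.8, 106.5 and 122.5 CPM and then at 34.0, 25.4 and 28.0 CPM (-1.95 ± 0.11, adjusted p = 3.16e-09). E2f3 was 2.15-fold lower (-1.10 ± 0.10). These 3 are the activating E2F proteins, and their groups did not overlap. Myc was 1.41-fold lower, at 252.9 to 262.4 CPM in serum and 168.1 to 195.6 CPM at 4 days. Mycn was 1.47-fold higher, at 113.5 to 130.6 CPM in serum and 160.1 to 197.3 CPM at 4 days. At 1 day, when 20.3% of all genes were lower and 20.4% higher, E2f2 was lower (-0.99 ± 0.11), E2f1 slightly so (-0.21 ± 0.08, adjusted p = 0.0415, a call lost without any single library of that comparison, with RLE scaling and with DESeq2), and Myc, Mycn and E2f3 did not pass.

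E2F sites are known in the promoters of replication genes, and the Mcm7 window is shown because that host fell most. The letters TTTCCCGC, TTTCGCGC and TTTGGCGC, forms of the E2F motif chosen after the values were seen, were searched on both strands of RefSeq windows of 300 bases (build GRCm38.p6, chr5:138171834-138172133, minus strand), with matches in capitals.
Mcm7: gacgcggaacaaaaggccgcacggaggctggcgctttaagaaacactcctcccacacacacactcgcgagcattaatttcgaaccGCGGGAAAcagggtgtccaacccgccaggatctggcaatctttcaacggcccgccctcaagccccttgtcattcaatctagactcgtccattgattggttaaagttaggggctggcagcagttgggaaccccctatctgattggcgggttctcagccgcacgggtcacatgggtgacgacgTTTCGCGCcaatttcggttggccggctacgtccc
The window held TTTCCCGC, which 1.07% of 32851 promoter windows held, and TTTCGCGC, which 0.323% held; 1.84% held any of the 3. The window of the other listed Mcm7 start and that of Dleu2 held none of these letters. The RefSeq model of Mir17hg starts inside the cluster, with 1 of its 6 hairpins inside the model, so its window was not read as a promoter.

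Reported targets of the guides were listed by seed. Of the 8 listed for the miR-17, miR-19 and miR-92 seeds 7 were tested at 4 days, and 5 were higher and 0 lower while 2 did not pass, beside the 36.2% of all genes that were higher. Cdkn1a, which encodes the cell cycle inhibitor p21, stood at 12.3, 11.9 and 11.7 CPM in serum and 51.6, 32.8 and 37.2 CPM at 4 days (1.76 ± 0.17, adjusted p = 4.08e-07). Bcl2l11, which encodes the pro-apoptotic protein Bim, stood at 3.66, 4.99 and 5.55 and then at 10.8, 12.5 and 10.9 CPM (1.26 ± 0.22, adjusted p = 1.62e-04). Neither overlapped between groups. Itga5, the fibronectin receptor subunit, was 1.96-fold higher, Rbl2, the pocket protein p130, 1.74-fold, and Phlpp1, an Akt phosphatase, 1.47-fold. Mapk9, which encodes the stress kinase JNK2, stood at 96.1 to 100.1 CPM in serum and 95.6 to 106.1 CPM at 4 days. Its groups overlapped (0.05 ± 0.08, adjusted p = 0.556). Tgfbr2 had 0 counts in all 6 libraries. At 1 day 1 of the 7 was higher, beside 20.4% of all genes: Rbl2 (0.33 ± 0.11, adjusted p = 0.0281), a call lost without any single library of that comparison.

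Of the 8 listed for the miR-15/16 seed 7 were tested, and 6 were lower and 1 higher at 4 days, beside 34.7% lower and 36.2% higher among all genes. Bcl2, the anti-apoptotic protein, was the one that was higher, at 14.2, 20.4 and 14.8 CPM in serum and 40.3, 42.8 and 50.5 CPM at 4 days (1.43 ± 0.15, adjusted p = 1.65e-06). Wee1, an inhibitory kinase of mitotic entry, stood at 48.9, 58.0 and 53.6 and then at 4.66, 1.65 and 3.40 CPM (-4.03 ± 0.24, adjusted p = 4.61e-09). Ccnd1, cyclin D1, stood at 382.7, 359.2 and 375.7 and then at 61.1, 96.0 and 106.7 CPM (-2.08 ± 0.15, adjusted p = 3.1e-08). No libraries overlapped between groups for these genes. Ccne1, cyclin E1, was 6.65-fold lower, Cdc25a, a phosphatase that activates cyclin-dependent kinases, 7.06-fold, Chek1, a checkpoint kinase, 18.36-fold, and Ccnd3, cyclin D3, 1.75-fold. Cdk6 had 0 counts in all 6 libraries. At 1 day 4 were lower (Wee1 -1.09, Cdc25a -0.85, Chek1 -0.79 and Ccnd1 -0.50) and Bcl2 was higher (0.39), beside 20.3% lower and 20.4% higher among all genes, while Ccnd3 and Ccne1 did not pass. The call for Bcl2 at 1 day was lost without serum replicate 1 and without either 1-day library, and that for Chek1 without serum replicate 2 or 1-day replicate 2. The lists were not tested as sets, and RNA levels of targets were not related to single miRNAs.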

How the data were processed

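Small RNA tables were deposited as raw counts per mature miRNA, and RNA-seq tables as raw counts per gene. The submitters' processing notes name STAR, cutadapt, BWA, DESeq and DESeq2, and the genome build mm9; the sources used here give neither their versions nor a miRNA annotation. An entry of unassigned reads (46.1 to 49.2% of reads in serum libraries, 34.1 to 40% at 4 days) was left out of totals. RNA-seq counts were those of the strand that dUTP libraries mark; reads in genes numbered 22359075 to 41505181 per library in the first experiment and 19900317 to 28631969 in the second, and 32620 of 37310 gene IDs matched a symbol.

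Counts were filtered with filterByExpr (at least 10 counts, and 15 in total), scaled by TMM and compared with edgeR 4.0.16 (two-sided quasi-likelihood test) in R 4.3.3, with limma 3.58.1, DESeq2 1.42.0, jsonlite 2.0.0 and the package data.table (version 1.17.8). P-values were adjusted (Benjamini-Hochberg) over all features of a comparison, and called at an adjusted p below 0.05. Arm ratios were tested as arm by group with each library as a term, for duplexes with a mean of at least 10 counts in each arm. Fold changes are on the log2 scale. Procedures were tested on simulated data, whose outcomes are not reported here and are not used as support for any call. Alternatives were RLE scaling, library totals with and without unassigned reads, DESeq2, other filters, limma on log ratios (offset 0.5), unstranded counts, the replicate number as a block, the WT libraries alone, and each library left out; scaling to 2 entries named for other species was chosen after seeing the data. Named features were all members, the host genes, 5 regulators and 16 reported targets; members and lists were chosen with earlier results of these data known. Values of 1 listed target and 1 listed marker are not reported here. Figures used Python 3.11.15, pandas 2.3.3 and matplotlib 3.10.9.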

Additional observations from a re-analysis of the deposited data

Results flagged for a closer look

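Cdkn1a and Bcl2l11, both listed targets of the miR-17-92 guides, stood on opposite sides of their serum libraries at the 2 times without serum. Cdkn1a had a log2 fold change of -0.159 ± 0.129 (SE) at 1 day, with both libraries below both serum libraries and no call (edgeR adjusted p = 0.358). At 4 days it had 1.759, with all 3 libraries above serum. Bcl2l11 had -0.152 ± 0.236 at 1 day, also with no call (edgeR adjusted p = 0.647), and 1.262 at 4 days. Its 1-day libraries, at 4.34 and 4.33 CPM, lay close to the lower of the serum libraries, at 5.26 and 4.40 CPM. The times come from different experiments, and the difference between them was not tested.

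The small RNA tables also held 2 entries named for other species, dme-miR-14-5p of the fly and xtr-miR-427 of the frog. Together they took 0.327, 0.507 and 0.343% of assigned reads in serum and 0.157, 0.202 and 0.212% at 4 days, so from 0.157 to 0.507%, with all 4-day libraries below all serum libraries. The labels do not state their source.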

How the results depend on the processing

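Scaled to the 2 entries named for other species, an alternative chosen after seeing the data, 5 members were lower and 7 higher, and these changed sign: miR-106a-3p 0.608, miR-106b-3p 0.252, miR-106b-5p 0.505, miR-15a-5p 0.253, miR-15b-5p 0.175, miR-17-3p 0.007, miR-17-5p 0.276, miR-19b-2-5p 0.157, miR-19b-3p 0.369, miR-20a-3p 0.264, miR-20a-5p 0.309, miR-20b-5p 0.333, miR-25-3p 0.638, miR-92b-3p 0.269 and miR-93-5p 0.677. Under that scaling 19 of all 715 miRNAs were lower and 243 higher. Library totals alone left 1 member higher, beside 88 of all 715 miRNAs, and turned miR-15a-3p (-0.271) and miR-16-5p (-0.196). Totals with unassigned reads turned miR-15a-3p (-0.017). The cause was not tested.

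With single libraries left out, the number of members lower ranged from 15 to 25 and higher from 1 to 4, the number of arm ratios lower from 7 to 10 and higher from 0 to 2, and the listed genes higher at 1 day from 0 to 1, against 2 with all libraries. The 25, the 10 and the 2 came without serum replicate 2, when 198 of 759 miRNAs tested were lower and 201 higher. Only 1 member was higher without serum replicate 1 or without replicate 2 at 4 days, beside 93 of 758 and 87 of 748 miRNAs tested. The sign varied, from lowest to highest, for miR-15a-3p (-0.055 to 0.068), miR-20b-5p (-0.72 to 0.062) and miR-25-3p (-0.16 to 0.007), for the arm ratios of miR-18a (-0.051 to 0.119), miR-20a (-0.177 to 0.171) and miR-322 (-0.284 to 0.016), and at 1 day for Ccnd3 (-0.092 to 0.012), Ccne1 (-0.258 to 0.024), Mycn (-0.127 to 0.014) and Myc (-0.056 to 0.020). Myc also turned under RLE scaling and DESeq2 (0.003 each). None of these had passed the test. At 1 day the listed genes higher numbered 1 with no low-count filter.

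Deviations of same-numbered replicates from their group means correlated at 0.077, 0.051 and -0.417 for miRNAs and at -0.042, 0.032 and 0.032 for genes at 4 days. At 1 day both values were 0.044, since 2 libraries per group force them to be equal. With so few libraries these values cannot decide whether same-numbered libraries were handled together, and the labels do not say. With the replicate number as a block 17 members were lower and 2 higher, beside 84 and 112 of all 715 miRNAs. Of the arm ratios 6 were lower and 0 higher, beside 33 and 6 of all 264 duplexes. The listed genes then had 13 lower and 7 higher at 4 days, beside 4521 and 4671 of 13283 genes. At 1 day they had 8 and 2, beside 2916 and 2953 of 13630 genes. Of 1204 values recomputed under alternatives, 1060 kept direction and call, or for counts stayed within 1.5 times. Depth limits the rare arms: the 6 untested members had 0 to 15.2 CPM, and 3 libraries per group limit all calls.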
